A study of Mus musculus with 3 samples.

Results

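Heat shock proteins and their co-chaperones were followed in freshly isolated adult mouse lung ECs as 78 of the 24346 genes in the deposited table. They were chosen by symbol alone, as the genes named Hspa, Hspb, Hspd, Hspe or Hsph with a number, Hsp90, Dnaja, Dnajb or Dnajc with a number, and *Bag1* to *Bag6*. That rule uses no measured value, though it was set with earlier results of these data known. No antisense or pseudogene name had to be dropped. The values are FPKM, that is, fragments divided by gene length and by library size, so that levels of different genes can be set side by side. The study compared the vessels of kidney with those of lung, liver and heart through development, and the adult lung ECs used here were 1 condition with 3 libraries, called S38, S44 and S52. All came from wild type male C57BL/6J mice aged 6 to 8 weeks, which received anti-VE-cadherin antibody into the circulation before death. The lungs were minced and digested with collagenase and dispase, and CD31+ CD45- Podoplanin- cells were collected by FACS. Poly-A RNA was made into libraries that do not keep the strand and was read from both ends at 51 bp. With 1 condition there is no contrast between groups, so the values below describe levels, ratios and the spread between libraries. No source says that the libraries came from separate animals, so the SDs may cover technical spread only.

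Chaperones bind unfolded stretches of other proteins and help them to fold, to stay soluble or to be handed on for degradation. HSP70 proteins do this in cycles of ATP hydrolysis, which DnaJ (HSP40) proteins start by delivering the client. HSP110 proteins and most BAG proteins reset these cycles by releasing the nucleotide. HSP90 acts later on nearly folded clients, small heat shock proteins hold clients without ATP, and the chaperonin of mitochondria encloses them in a chamber. Some genes of each family are expressed in all cells, and others are switched on by heat shock factors when unfolded proteins accumulate in the cytosol, or by the unfolded protein response when they accumulate in the endoplasmic reticulum (ER).

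Library S52 stood apart from the other libraries in markers of several cell types, which are not members. The median over 8 endothelial markers was alike in S38, S44 and S52, at 378, 393 and 379 FPKM (libraries are given in this order throughout). The sum of these markers was 4757, 5290 and 4447 FPKM. In S52, 2 of them were highest (*Emcn* and *Erg*) and 2 lowest (*Kdr* and *Cldn5*). Of the 8, 1, *Kdr*, was over 1.5-fold lower in S52 than in both others. Platelet markers were lower by this measure for 4 of 4 genes, and their sum was 1692, 1345 and 37.96 FPKM. The same held for 5 of 5 alveolar type 2 markers, with sums of 3839, 3218 and 767 FPKM, and for 4 of 4 secretory airway markers, with sums of 2775, 2313 and 399 FPKM and *Bpifa1* listed at 0 in S52. It also held for 4 of 5 detected ciliated airway markers (sums 206, 212 and 147 FPKM, *Rsph1* listed at 0 in S52). Most of these sums came from *Tppp3*, the detected gene that did not pass 1.5-fold, at 188, 203 and 144 FPKM. Leukocyte markers were lower for 6 of 7 detected genes (sums 109, 107 and 31.3 FPKM, *Cd3e* listed at 0 in S52). Of 3 detected erythroid markers 2 were lower, with sums of 337, 469 and 94.6 FPKM and *Hbb-bs* at 0.00319 FPKM in S52. Fibroblast markers were lower for 1 of 4 genes, with sums of 73.1, 56.0 and 41.9 FPKM. Of 6 smooth muscle and pericyte markers 2 were over 1.5-fold higher in S52 and 0 lower, at sums of 207, 122 and 191 FPKM, and of 5 detected cardiac and skeletal muscle markers 2 were higher and 2 lower, at sums of 66.5, 46.4 and 49.0 FPKM. In bulk samples fewer cells of a type and less RNA per cell cannot be told apart. The part of these other cells in the chaperone values was not tested, and every member the text turns on is therefore given library by library. Depth, estimated from the steps between low values, was about 38, 39 and 34 in units of 1000000 fragments.

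The members were expressed at high levels for genes of this table. A mean of at least 1 FPKM, called detected here, was reached by 68 of 78 members (87.2%), against 48.3% of all genes. At least 10 FPKM was reached by 51 members (65.4%), against 25.7% of all genes, and at least 100 FPKM by 9 members (11.5%), against 3.64%. The median of the 78 means was 14.5 FPKM, and that of all genes was 0.784 FPKM. Within libraries the members' median was 14.6, 15.0 and 16.7 FPKM.

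*Hspa8* was the highest member and was followed by *Hsp90ab1*, *Hspb1*, *Hspa5*, *Hsp90aa1* and *Hsp90b1*, in the order of their means. These genes cover the cytosol and the ER and belong to the HSP70, HSP90 and small heat shock families. For the 30 highest members, the gene was above the next in all 3 libraries in 6 cases: *Hspa8* over *Hsp90ab1*, *Hspa5* over *Hsp90aa1*, *Hsp90b1* over *Dnajc8*, *Dnajb9* over *Dnaja1*, *Dnajc7* over *Dnaja2* and *Bag5* over *Hspa4*. In 2 of these, *Hsp90b1* over *Dnajc8* and *Dnajc7* over *Dnaja2*, the ranges over the libraries did not overlap either, and all other neighbours changed places in at least 1 library. The plot of member levels shows how closely they lie below 100 FPKM.

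**Figure D1:**
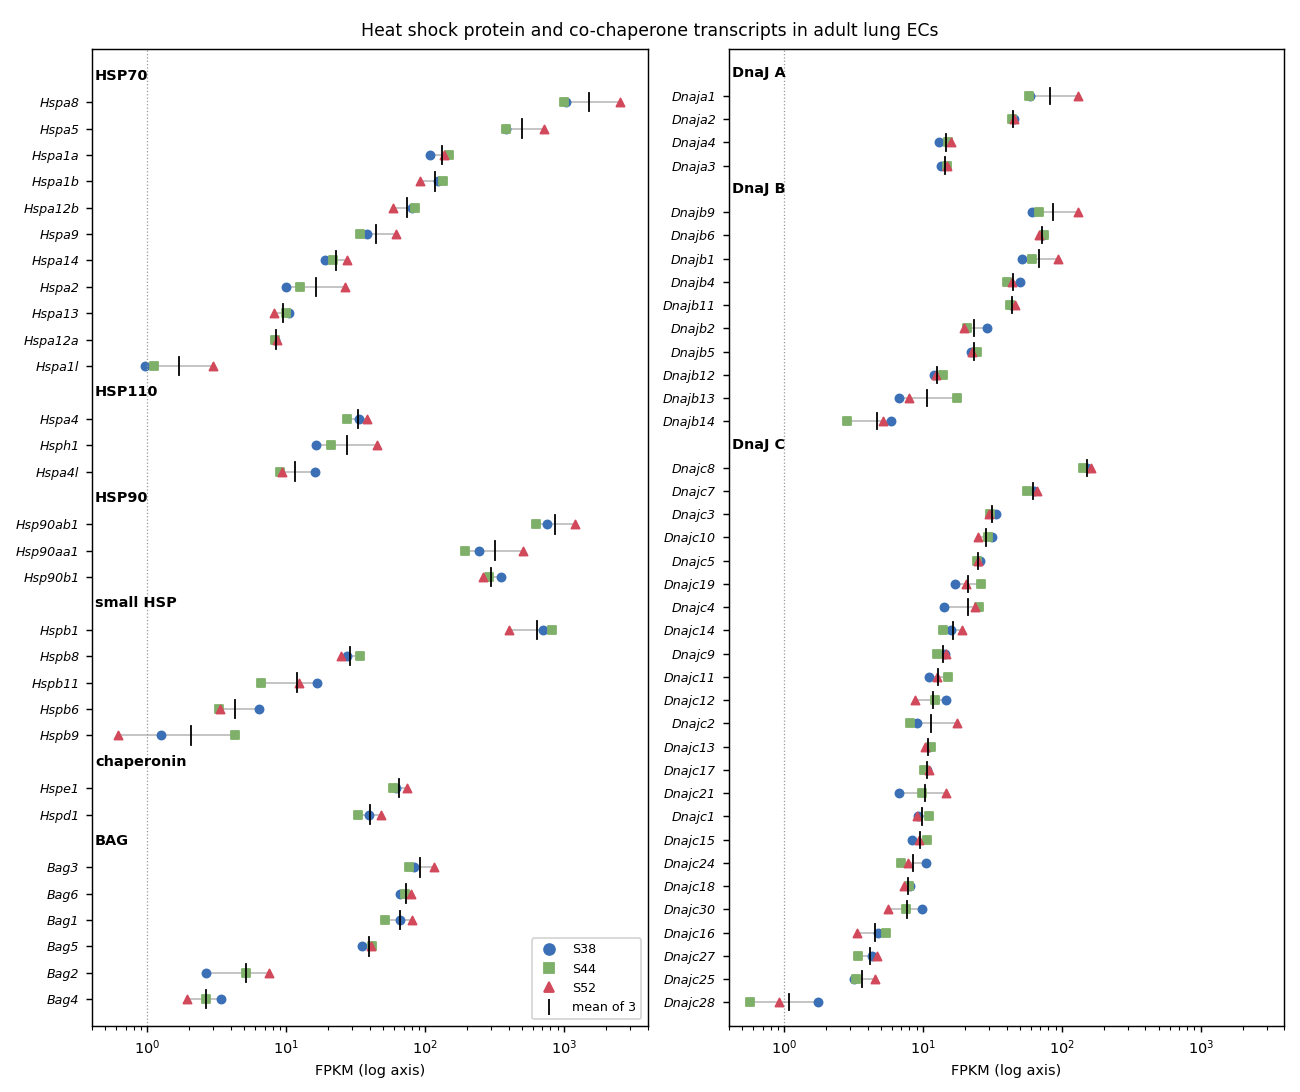
FPKM on a log axis for the 68 detected members, grouped by family and ordered by mean, with 1 symbol for each library and a vertical mark at the mean of 3. The dotted line marks 1 FPKM. *Hspa8* lies farthest to the right. S52 (triangles) lies to the right of both other libraries for 32 of the 68 genes (47.1%), against 33.9% of all detected genes. With libraries rescaled to the same total these shares were 29.9% and 20.3%.

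Added over each family of members, HSP70 transcripts were the largest group and HSP90 transcripts the next. Genes of other symbols, such as *Trap1*, are not in these sums. The 11 HSP70 genes summed to 1814, 1842 and 3665 FPKM, and the 3 HSP90 genes to 1351, 1107 and 1982 FPKM. The 8 small heat shock genes went the other way, at 763, 874 and 444 FPKM. DnaJ C genes, the most numerous class with 28 members, gave nearly equal sums of 489, 484 and 514 FPKM. The 13 DnaJ B genes summed to 354, 366 and 450 FPKM, the 6 BAG genes to 255, 250 and 326 FPKM, and the 4 DnaJ A genes to 130, 132 and 206 FPKM. The chaperonin pair, at 101, 92.2 and 123 FPKM, and the 3 HSP110 genes, at 66.2, 57.6 and 92.7 FPKM, were the smallest groups. All members together reached 5323, 5205 and 7803 FPKM, of which *Hspa8* alone made up 19.3%, 19.2% and 32.3%. Thus 8 of the 9 family sums were highest in S52. When each library was rescaled to the same total, the DnaJ C and chaperonin sums were highest in S38 instead, at 424, 302 and 362 and at 87.7, 57.5 and 86.3 FPKM. A sum is weighted towards its highest genes. As deposited, S52 was highest for 7 of 11 detected HSP70, 2 of 3 HSP90, 2 of 3 HSP110 and 2 of 2 chaperonin genes. It was highest for 3 of 4 DnaJ A, 4 of 6 BAG, 9 of 24 DnaJ C, 3 of 10 DnaJ B and 0 of 5 small heat shock genes. Over all detected genes this share was 33.9%.

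**Figure D2:**
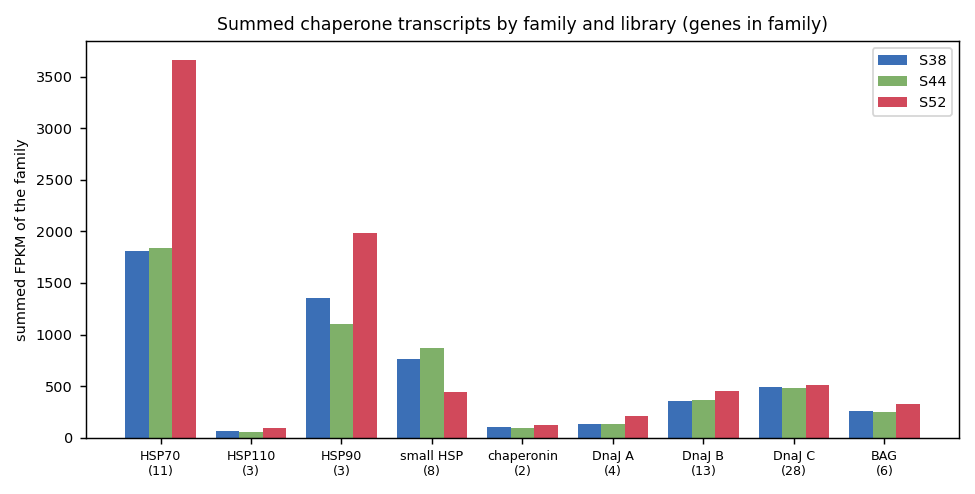
Summed FPKM of each family (bars from 0, number of genes in brackets) in S38, S44 and S52. Values are as deposited. The small heat shock sum was lowest in S52 and every other sum was highest there, with the DnaJ C and chaperonin sums losing that place when libraries were rescaled to the same total. Each bar is weighted towards the highest genes of its family.

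Heat shock genes are known for short promoter elements, and these were searched for in the RefSeq promoter windows of GRCm38 (250 bases before to 50 bases after each start), which matched 63 of the 78 members by symbol. A heat shock element is a row of inverted GAA units, written here for 2 units as GAANNTTC or TTCNNGAA and for 3 units as GAANNTTCNNGAA or TTCNNGAANNTTC. Each 2-unit form is its own reverse complement, so 1 search covers both strands, the 3-unit forms are each other's reverse complement, and every 3-unit match also counts as a 2-unit match. The 2-unit form was present for 17 members (27.0%) and for 17.0% of 27025 genes with a window. The 3-unit form was present for 4 members (6.35%), namely *Dnajb6*, *Hspd1*, *Hspe1* and *Hsph1*, and for 0.662% of genes. The ER stress element, bound in the unfolded protein response, was searched on both strands as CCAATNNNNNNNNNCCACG. It was present for 3 members (4.76%), *Dnajc3*, *Hsp90b1* and *Hspa5*, and for 0.137% of genes. A match describes letters in a window and was not tested as a binding site. Starts are those of RefSeq. For *Hspa5*, *Dnajb6*, *Dnaja1* and *Hsph1* the gene begins further upstream in GENCODE, ahead of the element printed below. The same holds for *Hspd1*, whose element is printed under *Hspe1*. The printed elements of *Hspa5* and *Dnajb6* overlap annotated exons. Members without a window here were *Bag4*, *Dnajc2*, *Dnajc5*, *Dnajc5b*, *Dnajc11*, *Dnajc12*, *Dnajc18*, *Dnajc22*, *Dnajc30*, *Hsp90aa1*, *Hsp90ab1*, *Hspa8*, *Hspa9*, *Hspa13* and *Hspb2*.

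**Figure D3:**
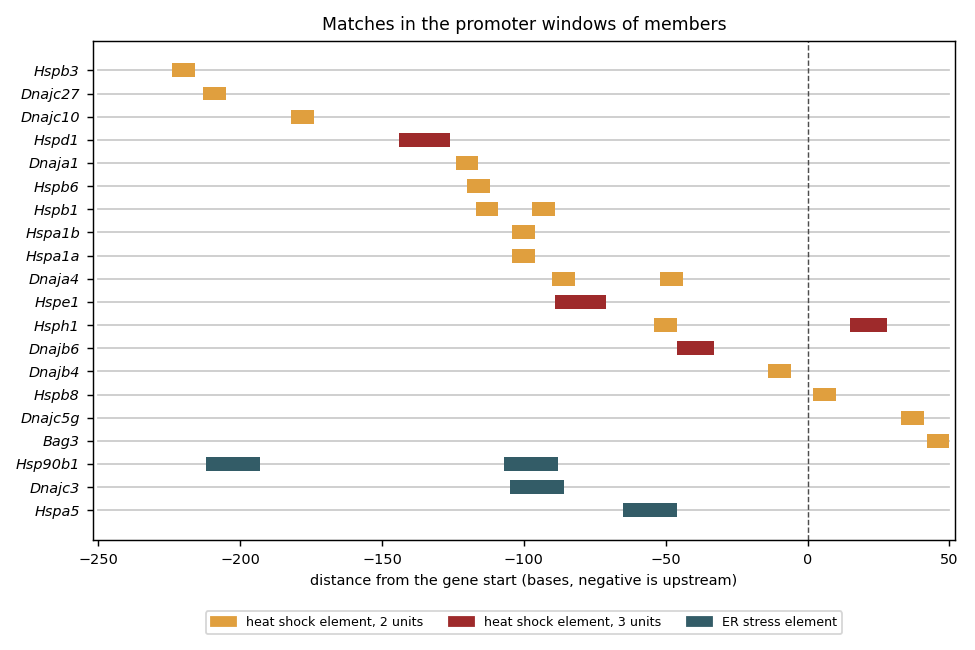
Position of matches, in bases from the gene start, in the 300-base windows of the members with any match (1 window for each gene). Boxes show the 2-unit heat shock element, overlapping units of the longer heat shock element and the ER stress element, and most boxes lie upstream of the start.

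Among HSP70 genes of the cytosol, the constitutive form was far above the inducible forms. *Hspa8*, which encodes the constitutive HSC70 and also uncoats clathrin vesicles, was at 1027, 1001 and 2519 FPKM (mean 1516 ± 869, SD, n = 3 libraries), which placed it 56th of all genes. Its highest value, in S52, was 2.52 times its lowest, and the other libraries were close to each other. Of the strongly heat-inducible genes, *Hspa1a* was at 108, 150 and 138 FPKM (mean 132 ± 21.6, SD, n = 3) and *Hspa1b* at 125, 135 and 91.7 FPKM (mean 117 ± 22.5, SD, n = 3). Neither followed *Hspa8* upwards in S52. Within libraries *Hspa8* exceeded *Hspa1b* by 8.22-fold, 7.44-fold and 27.5-fold. These ratios use *Hspa1b* alone, and the gap to *Hspa1a* was larger in S38 and smaller in S44 and S52. They depend on how fragments were divided between *Hspa1a* and *Hspa1b*.

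*Hspa1a* and *Hspa1b* are near copies that lie side by side on chromosome 17 (GRCm38, chr17:34969190-34972156 and chr17:34956436-34959238, both on the minus strand). Of the read-length stretches of *Hspa1a* (all runs of 51 bases in its annotated transcripts) 66.1% also occur in another gene, and of those of *Hspa1b* 62.0%, in both cases mostly in each other. The division of fragments between them is therefore uncertain. Their ratio had no fixed sign, with log2 values of -0.21, 0.15 and 0.59. Their promoters are also nearly the same, and the 150 bases before each start are shown because they are equal at 149 positions and both hold the heat shock element in capitals (*Hspa1a* chr17:34972157-34972306, *Hspa1b* chr17:34959239-34959388, both read on the minus strand).
Hspa1a: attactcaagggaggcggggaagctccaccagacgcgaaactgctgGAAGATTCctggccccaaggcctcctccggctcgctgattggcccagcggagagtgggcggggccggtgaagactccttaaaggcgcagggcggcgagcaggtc
Hspa1b: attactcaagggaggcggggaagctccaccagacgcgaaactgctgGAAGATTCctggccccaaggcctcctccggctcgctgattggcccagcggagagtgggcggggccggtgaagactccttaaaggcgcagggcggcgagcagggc

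The other HSP70 genes spanned a wide range of levels. *Hspa12b*, a distant relative of HSP70 known from endothelium, was at 81.0, 84.2 and 58.4 FPKM, whereas its paralog *Hspa12a* was at 8.28, 8.33 and 8.62 FPKM. The log2 ratio between these paralogs was 3.13 ± 0.32 (SD, n = 3), with the same sign in each library. *Hspa12a* was among the steadiest members, with a coefficient of variation of 2.16%, while *Hspa12b* had its lowest value in S52. *Hspa9*, which encodes the mitochondrial HSP70 mortalin, was at 38.2, 34.2 and 61.4 FPKM. *Hspa14*, whose product acts at the ribosome, was at 19.2, 21.6 and 27.4 FPKM, and *Hspa13*, a gene of the ER and microsomes, at 10.5, 9.97 and 8.12 FPKM. *Hspa2* and *Hspa1l* are both best known from male germ cells. *Hspa2*, low at 9.92, 12.6 and 26.5 FPKM, was highest in S52, as *Hspa8* was. *Hspa1l* was at 0.967, 1.12 and 2.97 FPKM, an estimated 85, 101 and 233 fragments. Of its read-length stretches 71.4% are shared with the overlapping gene model *Gm10501* on the other strand, so these fragments cannot be assigned to *Hspa1l*.

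The HSP110 genes, which encode nucleotide exchange factors of HSP70, did not move as a group. *Hsph1*, a heat-inducible gene, was at 16.5, 20.9 and 45.3 FPKM (mean 27.6 ± 15.5, SD, n = 3). *Hspa4* was at 33.5, 27.6 and 38.1 FPKM and *Hspa4l* at 16.2, 9.05 and 9.31 FPKM. *Hsph1* was thus below *Hspa4* in S38 and S44 and above it in S52, and the log2 ratio was -0.39 ± 0.64 (SD, n = 3). The stretch before the RefSeq start of *Hsph1*, with a 2-unit element in capitals, is shown (chr5:149636339-149636465, minus strand). It was picked because *Hsph1* had 1 of the highest S52 ratios among members with a window. In GENCODE the gene reaches to chr5:149636376, so this element lies within the gene there. Its 3-unit match lies just after the annotated start and is not printed.
Hsph1: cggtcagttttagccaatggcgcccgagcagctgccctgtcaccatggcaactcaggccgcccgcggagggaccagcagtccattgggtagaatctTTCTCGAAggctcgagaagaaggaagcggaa

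Both cytosolic HSP90 genes were highest in S52, and the constitutive gene exceeded the inducible gene in each library. *Hsp90ab1*, the constitutive form, was at 754, 625 and 1210 FPKM (mean 863 ± 308, SD, n = 3). *Hsp90aa1*, the form that heat shock raises most, was at 244, 194 and 511 FPKM (mean 317 ± 170, SD, n = 3). The ratio of *Hsp90ab1* to *Hsp90aa1* was 3.09, 3.21 and 2.37, a log2 ratio of 1.52 ± 0.24 (SD, n = 3). Of the read-length stretches of *Hsp90aa1* 47.3% occur elsewhere, most of them in *Gm12346*, against 3.25% for *Hsp90ab1*. For *Hspa8* this share was 39.1%, mostly with *Gm15459*, so the levels of *Hspa8* and *Hsp90aa1* depend on how fragments with several matches were assigned.

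The ER genes of the HSP70 and HSP90 families parted company in S52. *Hspa5*, which encodes the ER HSP70 called BiP, was at 386, 385 and 723 FPKM (mean 498 ± 195, SD, n = 3). *Hsp90b1*, which encodes the ER HSP90 called GRP94, was at 352, 288 and 261 FPKM (mean 300 ± 47.1, SD, n = 3), and so was lowest where *Hspa5* was highest. Their log2 ratio, *Hsp90b1* to *Hspa5*, went from -0.13 in S38 and -0.42 in S44 to -1.47 in S52. Both genes, and *Dnajc3*, hold the ER stress element in their promoters, and it is shown in capitals for the 3 genes because they differ in S52 (*Hspa5* chr2:34772025-34772043, plus strand, the element alone; *Hsp90b1* chr10:86705510-86705694, minus strand, an element in each orientation; *Dnajc3* chr14:118937782-118937931, plus strand).
Hspa5: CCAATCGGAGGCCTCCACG
Hsp90b1: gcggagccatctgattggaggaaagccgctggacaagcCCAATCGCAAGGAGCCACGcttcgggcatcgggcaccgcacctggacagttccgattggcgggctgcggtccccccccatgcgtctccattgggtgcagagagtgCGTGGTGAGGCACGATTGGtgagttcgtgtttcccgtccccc
Dnajc3: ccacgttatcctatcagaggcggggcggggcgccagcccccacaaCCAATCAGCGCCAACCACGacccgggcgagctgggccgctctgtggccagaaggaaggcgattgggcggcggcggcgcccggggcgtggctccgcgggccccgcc

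The DnaJ partners of BiP likewise differed among themselves. *Dnajb9*, which encodes ERdj4, was at 61.5, 68.6 and 131 FPKM and had its highest value in S52, as *Hspa5* did. *Dnajb11*, which encodes ERdj3, was level at 42.3 to 46.3 FPKM. *Dnajc3*, whose product p58IPK acts in the ER lumen, was at 33.3, 30.4 and 29.8 FPKM, and *Dnajc10*, an ER reductase with a J domain, at 31.5, 29.5 and 24.7 FPKM. Outside the members, 15 of 15 genes of ER folding and the unfolded protein response were detected. Of these, 0 were over 1.5-fold higher in S52 than in both others (5.56% of all detected genes) and 1 lower (15.2%). The median log2 difference of S52 from the geometric mean of S38 and S44, called the S52 ratio below, was -0.02 for these 15 genes. *Atf4*, the highest of the 15, was at 506, 644 and 729 FPKM, and *Ern1*, the lowest and a sensor of ER stress, at 9.43, 6.27 and 5.11 FPKM.

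Transcripts of the small heat shock members came almost wholly from 1 gene, which was lowest in S52. *Hspb1*, which encodes HSP25 and is also known for binding the actin cytoskeleton, was at 710, 823 and 402 FPKM (mean 645 ± 218, SD, n = 3). It made up 93.1%, 94.2% and 90.6% of the family sum. That sum follows the symbol rule, so it counts *Hspb11* and leaves out *Cryaa* and *Cryab*. *Cryab* was at 36.8, 34.6 and 28.3 FPKM. *Hspb8*, a partner of BAG3, was at 27.4, 34.3 and 24.97 FPKM, so that *Hspb1* exceeded it by 25.9-fold, 24.0-fold and 16.1-fold. *Hspb6*, known from smooth and cardiac muscle, was at 6.33, 3.30 and 3.32 FPKM. *Hspb11*, which shares the symbol but encodes a protein of intraflagellar transport, was at 16.7, 6.62 and 12.5 FPKM. *Hspb9*, a testis gene, was at 1.25, 4.28 and 0.621 FPKM, an estimated 27, 95 and 12 fragments. Of the read-length stretches of *Hspb1* 49.9% occur elsewhere, nearly all in the pseudogene *Hsp25-ps1*. The promoter of *Hspb1* is shown because the gene was lowest in S52 and holds 2 heat shock elements, in capitals (chr5:135887769-135887918, plus strand).
Hspb1: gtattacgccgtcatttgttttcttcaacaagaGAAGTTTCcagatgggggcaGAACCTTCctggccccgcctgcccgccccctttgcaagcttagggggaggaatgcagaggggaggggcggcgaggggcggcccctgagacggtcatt

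The genes of the mitochondrial chaperonin kept a steady ratio. *Hspd1*, which encodes HSP60, was at 39.6, 32.9 and 48.1 FPKM, and *Hspe1*, which encodes its lid HSP10, at 61.6, 59.3 and 74.5 FPKM. Their log2 ratio, *Hspe1* to *Hspd1*, was 0.71 ± 0.12 (SD, n = 3), the smallest spread among the 13 pairs compared. Of the read-length stretches of *Hspd1* 41.6% occur elsewhere, mostly in the pseudogene *Hspd1-ps3*, and of those of *Hspe1* 22.4%. These genes lie head to head on opposite strands (*Hspd1* chr1:55077835-55088243, minus strand, and *Hspe1* chr1:55088132-55091307, plus strand, in GENCODE), and their outermost annotated transcripts overlap. The RefSeq starts of the windows used here lie 216 bases apart. A stretch between those starts is shown because 1 row of heat shock units, in capitals, lies in both windows (chr1:55088025-55088131, written on the plus strand).
Hspe1: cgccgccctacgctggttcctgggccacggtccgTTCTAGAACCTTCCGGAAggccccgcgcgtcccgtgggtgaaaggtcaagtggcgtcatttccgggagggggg

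Of the other mitochondrial members, *Hspa9* was close to *Hspd1*, with a log2 ratio of 0.12 ± 0.21 (SD, n = 3) whose sign was mixed. All 7 further genes of mitochondrial folding and proteolysis, chosen outside the rule, were detected. Against 5.56% of detected genes higher and 15.2% lower in S52, 0 of these 7 passed 1.5-fold in either direction. *Trap1*, the mitochondrial HSP90, led them with 29.5, 31.4 and 30.3 FPKM. The lowest was *Clpb*, an unfoldase, at 4.57, 5.84 and 4.21 FPKM.

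DnaJ A and DnaJ B genes, which deliver unfolded clients to HSP70, held both the steadiest and some of the most variable members. *Dnaja1*, a main partner of *Hspa8*, was at 58.8, 58.1 and 130 FPKM (mean 82.2 ± 41.2, SD, n = 3). *Dnaja2*, with the same role, was at 44.9, 43.7 and 45.4 FPKM and had the lowest coefficient of variation of all detected members, 1.93%. In S52 these paralogs therefore differed, while in S38 and S44 they were much closer. Of the read-length stretches of *Dnaja1* 20.5% occur elsewhere, the largest part in *Gm15542*, against 0% for *Dnaja2*. *Dnaja1* also shares 10.5% of its exon bases with *Smu1* on the other strand, which was at 28.4, 28.2 and 29.4 FPKM. *Dnaja4*, at 13.1, 15.1 and 15.8 FPKM, shares 42.7% of its read-length stretches with *Wdr61* on the other strand. *Dnaja3*, of mitochondria, was at 13.4, 15.0 and 14.8 FPKM.

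*Dnajb1*, the inducible HSP40 of the cytosol, was at 51.3, 60.8 and 93.9 FPKM (mean 68.6 ± 22.3, SD, n = 3). Its level was close to that of *Dnaja1*, and the log2 ratio *Dnaja1* to *Dnajb1* was 0.20 ± 0.27 (SD, n = 3) with mixed sign. *Dnajb6*, which holds back aggregation of polyglutamine proteins, was level at 72.7, 74.7 and 68.1 FPKM. Of its read-length stretches 20.9% occur elsewhere, the largest part in *Gm2541*. The element of *Dnajb6* and the promoter of *Dnaja1* are shown because the first gene was steady with a 3-unit element and the other was high in S52 with a 2-unit element, both in capitals (*Dnajb6* chr5:29735852-29735864, *Dnaja1* chr4:40722318-40722467, both plus strand).
Dnajb6: GAATCTTCCGGAA
Dnaja1: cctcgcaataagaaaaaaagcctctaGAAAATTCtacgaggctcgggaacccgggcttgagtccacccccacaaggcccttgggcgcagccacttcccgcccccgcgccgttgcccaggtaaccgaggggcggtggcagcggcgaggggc

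Among the remaining DnaJ B genes, *Dnajb4* was at 49.6, 40.6 and 43.6 FPKM, and *Dnajb2*, *Dnajb5* and *Dnajb12* had means of 23.2, 23.1 and 12.7 FPKM. *Dnajb14*, which encodes a J protein of the ER membrane, was at 5.86, 2.85 and 5.19 FPKM. *Dnajb13*, a gene of the ciliary axoneme, was at 6.72, 17.4 and 7.94 FPKM. It shares 11.8% of its exon bases with *Ucp2* on the other strand, which was at 178, 186 and 158 FPKM, and without strand information reads from that stretch cannot be told apart.

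DnaJ C genes share only the J domain and serve many compartments, and 24 of 28 were detected. *Dnajc8*, whose product associates with the spliceosome, was the highest, at 151, 141 and 163 FPKM (mean 151 ± 10.9, SD, n = 3). *Dnajc7*, a link between HSP70 and HSP90, was at 62.8, 56.5 and 66.4 FPKM. *Dnajc5*, the cysteine string protein of secretory vesicles, was at 25.6, 24.4 and 24.97 FPKM, with a coefficient of variation of 2.35%. The 3 DnaJ C genes over 2-fold between libraries were *Dnajc2*, *Dnajc21* and *Dnajc28*. *Dnajc2*, whose product works with HSPA14 on the ribosome, was at 9.01, 8.04 and 17.5 FPKM, and *Dnajc21*, needed for ribosome assembly, at 6.77, 9.90 and 14.6 FPKM. *Dnajc28* was just above the threshold for detection, at 1.76, 0.566 and 0.916 FPKM. The other detected members of this class had means from 3.67 FPKM (*Dnajc25*) to 31.2 FPKM (*Dnajc3*).

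BAG genes, most of whose products release nucleotide from HSP70 and couple it to other machines, were all detected. *Bag3*, which works with HSPB8 in selective autophagy and is induced by stress, was at 82.7, 77.1 and 116 FPKM (mean 91.8 ± 20.8, SD, n = 3). *Bag6*, of the pathway for tail-anchored proteins, was at 65.8, 72.2 and 79.1 FPKM, and *Bag1*, which links HSP70 to the proteasome, at 65.6, 51.3 and 80.9 FPKM. *Bag3* exceeded *Bag1* in each library by a log2 ratio of 0.48 ± 0.13 (SD, n = 3). *Bag5* was at 35.3, 41.8 and 40.9 FPKM. *Bag2*, an inhibitor of the ubiquitin ligase CHIP, was at 2.65, 5.17 and 7.55 FPKM, and *Bag4* at 3.41, 2.66 and 1.94 FPKM.

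**Figure D4:**
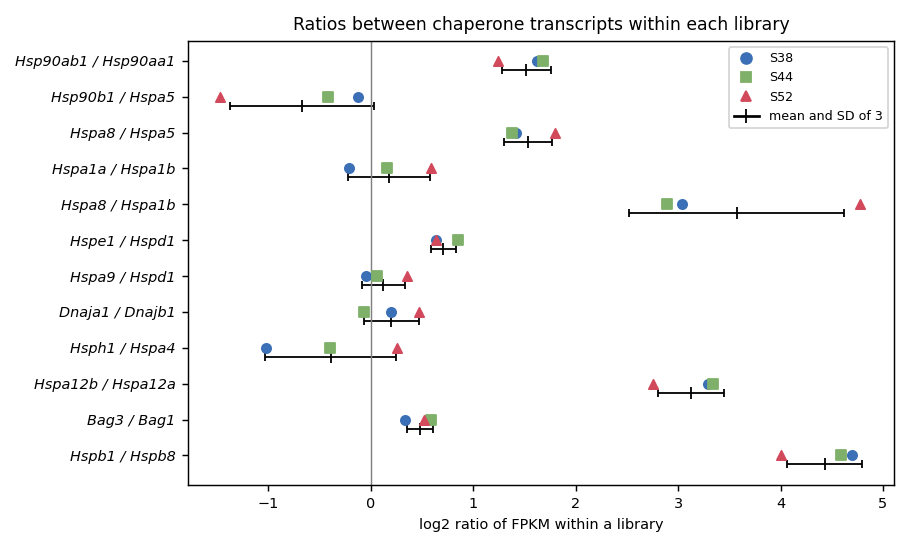
Log2 ratio of FPKM between 12 pairs of members within each library (symbols), with the mean and SD of 3 libraries below them as a bar. Pairs whose symbols all lie on 1 side of 0, such as *Hsp90ab1* over *Hsp90aa1* and *Hspe1* over *Hspd1*, kept their order in every library, while *Hspa1a* to *Hspa1b*, *Hspa9* to *Hspd1*, *Dnaja1* to *Dnajb1* and *Hsph1* to *Hspa4* crossed 0.

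The other 10 members stayed below 1 FPKM on average. Nearest to that limit were *Hspb7*, known from the heart, at 0.907, 1.22 and 0.191 FPKM, and *Hspb2*, known from muscle, at 0.308 and 1.43 FPKM and listed at 0 in S52. *Hspb2* shares 30.2% of its exon bases with *Cryab* on the other strand, which was at 36.8, 34.6 and 28.3 FPKM. *Dnajc6*, which encodes the neuronal auxilin, followed at 0.217 and 0.0360 FPKM and was listed at 0 in S52. *Dnajc5g*, *Dnajb3* and *Dnajc22* had a value above 0 in 1 library each, at most 0.146 FPKM. *Dnajb7*, *Dnajb8*, *Dnajc5b* and *Hspb3* were listed at 0 in all libraries, where a count of 0 allows up to 0.0634 to 0.142 FPKM for the lengths of these genes (3 fragments, counting error only). Just above the limit were *Dnajc28*, *Hspa1l* and *Hspb9*.

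Across the 68 detected members, 16 varied over 2-fold between their lowest and highest library (23.5%), against 20.1% of the 11770 detected genes. At a mean of at least 10 FPKM the share was 11 of 51 members (21.6%), against 8.74% of genes. The ratio was largest for *Hspb9*, at 6.89, followed by *Dnajc28*, *Hspa1l*, *Bag2*, *Hsph1* and *Hspa2*, at 3.10, 3.07, 2.85, 2.75 and 2.67. Next came *Hsp90aa1*, *Dnajb13*, *Hspb11* and *Hspa8*, from 2.63 to 2.52. Without S52 the count fell to 5 of 69 members (7.25%), *Dnajb13*, *Dnajb14*, *Dnajc28*, *Hspb9* and *Hspb11*, against 5.06% of genes. None of these 5 belongs to the high members, the highest mean among them being 11.9 FPKM.

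The direction of the differences with S52 was uneven. Over 1.5-fold higher in S52 than in both other libraries were 12 members (17.6%), against 5.56% of detected genes. They were *Hspa8*, *Hspa5*, *Hspa9*, *Hspa2*, *Hspa1l*, *Hsph1*, *Hsp90aa1*, *Hsp90ab1*, *Dnaja1*, *Dnajb1*, *Dnajb9* and *Dnajc2*. *Hspa1l* is counted by its listed value, though its fragments cannot be assigned to it. Over 1.5-fold lower were 2 members (2.94%), *Hspb1* and *Hspb9*, against 15.2% of detected genes. S52 held the highest value for 32 members (47.1%), against 33.9% of genes, and the lowest for 18 (26.5%), against 46.3%. With libraries rescaled to the same total these counts were 20 of 67 (29.9%, against 20.3% of genes) and 15 of 67 (22.4%, against 40.1%). These counts have no test, since S52 is 1 library and the members are not replicates of it.

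In size, the S52 ratio was 1.31 for *Hspa8*, 1.29 for *Hsph1*, 1.25 for *Hspa2*, 1.23 for *Hsp90aa1* and 1.15 for *Dnaja1* (log2). The value listed for *Hspa1l* was 1.51, from fragments that cannot be assigned to it, as given above. The ratio of *Hspa8* was above that of 98.5% of the 11574 detected genes with a ratio and that of *Hspa5*, at 0.91, above 96.6%. At the low end stood *Hspb1* at -0.93, above 10.5% of genes, and *Hspb9* at -1.90, above 3.29%. The median over the 68 members was 0.09 and that over all detected genes -0.07. Of the 68 members, 33 lay between the 25th and 75th percentiles of all detected genes, 12 above the 95th percentile and 1 below the 5th. Among detected members with a promoter window, the median was 0.12 with a 2-unit heat shock element (15 genes) and 0.10 without (41 genes). Of the first 2, and of the others 5, were over 1.5-fold higher in S52. *Hspa8*, *Hsp90aa1*, *Hsp90ab1*, *Hspa9* and *Dnajc2* were also over 1.5-fold higher but had no window, so they are in neither group. A link between the element and the S52 ratio was not tested. The 4 genes with a 3-unit element had a median of 0.36, and 1 of them, *Hsph1*, passed 1.5-fold.

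**Figure D5:**
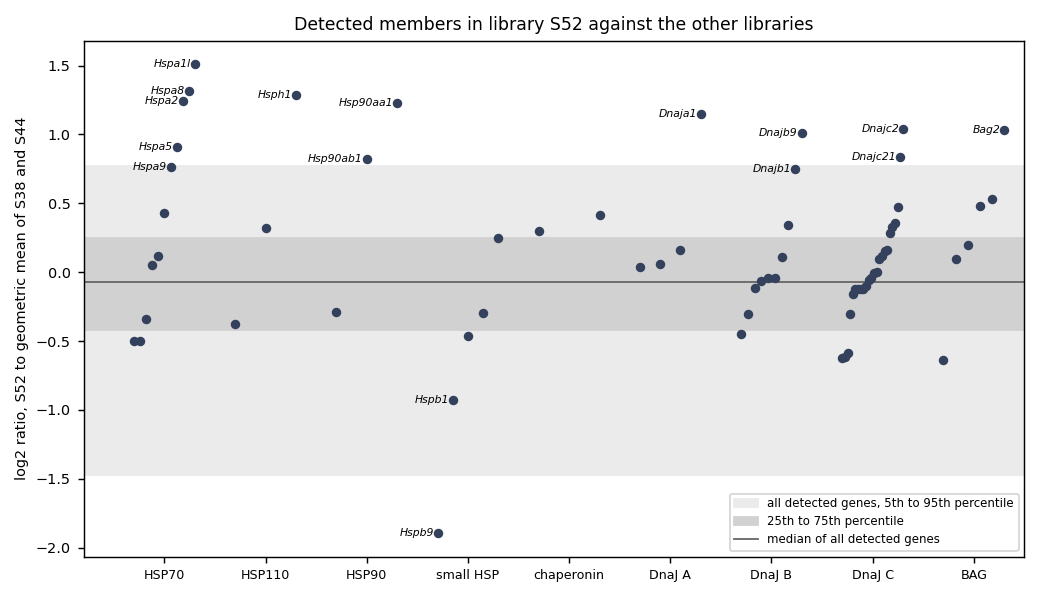
The log2 ratio of S52 to the geometric mean of S38 and S44 for each of the 68 detected members, by family, with shaded bands for the 25th to 75th and 5th to 95th percentiles of all detected genes. The shaded range holds 55 of the 68 members, 12 lie above it and 1, *Hspb9*, lies below it.

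Partners of these chaperones outside the rule were detected almost without exception, against 48.3% of all genes. Over all detected genes, 33.9% were highest in S52, 5.56% over 1.5-fold higher there than in both others and 15.2% lower. Of 18 HSP90 co-chaperones, 18 were detected and 9 had their highest value in S52, with 1 over 1.5-fold higher there than in both others, 1 lower and a median S52 ratio of 0.09. *Ptges3*, which encodes the p23 co-chaperone, was the highest at 76.8, 72.2 and 89.9 FPKM, and *Fkbp5* the lowest at 2.21, 1.91 and 1.80 FPKM. All 14 genes of the cytosolic chaperonin TRiC and of prefoldin were detected, and 11 of them were highest in S52, 2 over 1.5-fold higher and 1 lower, with a median S52 ratio of 0.43. *Pfdn5* was the highest of these at 184, 211 and 193 FPKM, and *Pfdn4* the lowest at 23.8, 20.7 and 20.98 FPKM. Of 9 further chaperone genes, mostly partners of HSP70, 8 were detected, 0 passed 1.5-fold in S52 in either direction, and the median S52 ratio was -0.30. *St13*, which encodes the HIP co-chaperone, led them at 57.5, 47.6 and 84.2 FPKM, and *Cryaa*, a small heat shock gene of the lens, was the lowest at 0.136 FPKM in S38 and 0 in the others.

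Heat shock factors, which drive the inducible members, and immediate-early genes, which are known to respond to tissue dissociation, gave the following values. *Hsf1*, the main factor, was at 27.6, 24.0 and 24.3 FPKM and 2 of the 4 factor genes were detected, 0 of them over 1.5-fold in either direction. The lowest, *Hsf5*, stayed at or below 0.0895 FPKM. The 8 immediate-early genes had medians of 325, 402 and 378 FPKM, with 2 of 8 over 1.5-fold higher in S52 (5.56% of detected genes). *Ier3*, the highest, was at 884, 1124 and 1873 FPKM, and *Fosb*, the lowest, at 219, 187 and 393 FPKM. These are the 2 genes that passed 1.5-fold. Of all 8, 3 were highest and 2 lowest in S52, and the median S52 ratio was 0.14. The part of the factors and of the immediate-early genes in the chaperone levels was not tested.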

How the data were processed

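Adult lung ECs of 1 condition were analysed in 3 libraries, grouped by the sample labels. The values are FPKM for each gene symbol as the authors deposited them, on mm10, and 0 columns were left out. The submitters' processing notes name bcl2fastq 2.17, FastQC 0.11.5, Trimmomatic 0.36, TopHat2 2.1.0 and Cufflinks 2.2.1, whereas the paper's methods describe BBtools, STAR and HTSeq counts with no FPKM step, so the path to these values and the gene annotation are not given in the sources used here. No batch correction of the FPKM values is stated. Gene-level FPKM depends on how fragments matching several genes were assigned.

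Values were used as deposited, and no test between groups was possible. An exact sign-flip test over 3 libraries cannot go below p = 0.25, so ratios are given with their SD. Fold counts used members with a mean of at least 1 FPKM, with no pseudocount. The S52 ratio is the log2 of S52 over the geometric mean of S38 and S44. The members, the lists of other genes and the tests were chosen with earlier results of these data known, and the 1.5-fold counts for S52, the depth method and the overlap checks were chosen after the values were seen. Named with values in each library were the 3 highest members of each class, the genes of 13 pairs, the 10 members with the largest ratio between libraries and the members nearest to 1 FPKM, and other members were added after their values were seen. Depth was estimated from low values of 7077 genes with 1 basic GENCODE M21 transcript of 800 to 4000 bp. After a length correction of 160 bp, 78.3%, 75.8% and 73.1% of 364, 484 and 216 low values lay within 0.15 fragments of a whole number. Positions are from GENCODE M21 and promoters from RefSeq (both GRCm38). Read-length stretches are all 51-base windows of a gene's annotated transcripts. The scripts, checked on simulated data, used Python 3.11.15, numpy 2.4.6, pandas 2.3.3 and matplotlib 3.10.9.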

Additional observations from a re-analysis of the deposited data

How the results depend on the processing

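The number of detected members stayed between 51 and 70 at thresholds of 10 and 0.1 FPKM, against 68 at 1 FPKM, and was 67, 67 and 69 without S38, S44 or S52. The median level of members was 14.5 FPKM, 10.6 FPKM after rescaling each library to a sum of 1000000 and 21.9 FPKM over detected members alone. That rescaling lowers log2 values by 0.21, 0.68 and 0.51 in S38, S44 and S52, and it moved 18 of 40 named members by 1 SD or more, while median-of-ratios size factors of 0.998, 1.007 and 0.997 moved 0 of 40. Members over 2-fold between libraries numbered 16 (20.1% of detected genes), 22 after the rescaling (25.8%), 11 at a mean of at least 10 FPKM (8.74%), and 5 to 10 when 1 library was left out, namely 10 without S38 (13.5%), 9 without S44 (14.8%) and 5 without S52 (5.06%). Members over 1.5-fold higher in S52 than in both others numbered 12 (5.56% of detected genes), with 11 after the rescaling (2.98%, without *Dnajb1*, *Hsp90ab1* and *Hspa9* and with *Bag2* and *Dnajc21*), 15 without S38 (11.2%), 15 without S44 (9.77%) and 6 at 2-fold (1.72%). Those over 1.5-fold lower numbered 2 (15.2% of detected genes), with 4 without S38 (18.5%), 7 without S44 (21.1%) and 1 at 2-fold (8.04%). The share of member promoters with a heat shock element was 27.0% for 2 units and 6.35% for 3 units. Without S52 the log2 ratio of *Hsp90b1* to *Hspa5* went from -0.67 to -0.27, that of *Hspa8* to *Hspa1b* from 3.57 to 2.97, that of *Hsph1* to *Hspa4* from -0.39 to -0.71, that of *Hspa9* to *Hspd1* from 0.12 to 0.0017 and that of *Hspa1a* to *Hspa1b* from 0.18 to -0.03, and without S38 that of *Hsph1* to *Hspa4* was -0.08. Of the 13 pairs, only *Hspa1a* to *Hspa1b* changed sign when 1 library was left out. No paired analysis was possible because there is only 1 group.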
